A study of Mus musculus with 18 samples.

Results

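Growing C2C12 cells, a mouse myoblast line that turns into muscle when serum is lowered, were compared after RNAi against STAC3 and after a high-GC control RNAi. The comparison holds 7 of the 15 biological samples of the study, namely 4 samples with STAC3 RNAi (replicates 1 to 4) and 3 with control RNAi (replicates 2, 3 and 4), all at day 0, 24 h after transfection and in growth medium. The other 8 samples, 4 with STAC3 RNAi and 4 with control RNAi, were taken at day 1, 48 h after transfection and after 24 h in differentiation medium. RNA was measured on Illumina mouse bead arrays, and the 7 samples were chosen by the column names of the authors' normalized value table. Control replicate 4 has a repeat array, which was averaged with the first. Every sample comes from the same cell line, and the labels name 1 RNAi against STAC3, whose sequence was not analysed here. The labels call the replicates biological samples without saying whether they were separate transfections, and the spread behind each p-value may therefore be technical.

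STAC3 is an adaptor protein of skeletal muscle that binds the voltage-gated calcium channel of the muscle membrane and is needed for coupling excitation to contraction. Growing myoblasts carry little of that machinery, and they divide until lowered serum takes them out of the cell cycle. Entry into DNA synthesis is driven by E2F transcription factors bound to a DP partner, which are held back by the pocket proteins of the retinoblastoma family until cyclin-dependent kinases phosphorylate these. Genes for the replicative helicase, for DNA precursors and for cyclin E are textbook E2F targets. The question asked at day 0 is what the RNAi does to the RNA of myoblasts before differentiation starts.

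Between 15146 and 16290 probes were detected per day 0 array, and 18408 probes were tested, which name 10142 genes. Where a gene has several probes, the brightest stands for it. Values are the authors' log2 values, and a probe is detected at about 6.87 on that scale. Differences are log2 fold changes of STAC3 RNAi over control RNAi with their standard error (SE), and a gene passes at an adjusted p below 0.05 over all probes. The desmin gene Des, at 12.13 to 12.38 with STAC3 RNAi and 12.50 to 12.62 with control RNAi, and Myod1, a determination factor of the muscle lineage, at 8.87 to 8.97 and 8.64 to 8.73, were above detection in every sample. Myf5, the proliferation marker Mki67 and Stac have no tested probe. The arrays fall into a set of 12 and a set of 6 by the lowest bead intensity on each (44.0 to 52.1 and 32.1 to 36.0). STAC3 RNAi replicate 4 and the repeat of control replicate 4 lie in the smaller set. Within the 12 arrays every RNAi array has a higher floor (46.8 to 52.1) than every control array (44.0 to 46.2), and the deposited intensity table lists the 6 control arrays of that set first and the 6 RNAi arrays after them. Treatment and any difference between those runs of arrays cannot be told apart within the 12. Within the 6 arrays the floors overlap, at 33.3 to 36.0 for RNAi and 32.1 to 35.6 for control. The first principal component of the 7 samples, with 54.2% of the variance, ran from 11.5 to 13.0 for STAC3 RNAi and from -18.3 to -14.6 for control RNAi. The second, with 19.2%, set replicate 4 of both treatments apart, at -14.7 for STAC3 RNAi and -11.0 for control RNAi, against 1.21 to 7.90 for the other 5 samples.

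Stac3 itself was at 6.70, 6.68, 6.79 and 6.75 with STAC3 RNAi, against 7.04, 6.98 and 7.15 with control RNAi. All 4 RNAi samples lay below the detection level and all 3 controls above it, so the groups did not overlap. The difference was -0.33 (SE 0.09, limma adjusted p = 0.0214), a fall of at least 1.14-fold, and an exact two-sided permutation test gave p = 0.0286, the smallest that 35 splits allow. The call rests on few samples: it did not pass without control replicate 4 (-0.28) or control replicate 2 (-0.34), at limma adjusted p = 0.101 and 0.0567. It also did not pass without RNAi sample 1 or RNAi sample 2 of the STAC3 group, at limma adjusted p = 0.0525 and 0.0545. The paralogue Stac2 was at 9.92, 9.82, 9.56 and 9.73 with STAC3 RNAi, against 9.34, 9.53 and 9.23 with control RNAi. The groups did not overlap, and the difference of 0.39 (SE 0.17) did not pass (limma adjusted p = 0.159).

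Among all 10142 genes, 1488 passed an adjusted p below 0.05 (14.7%), 815 of them higher (8.04%) and 673 lower (6.64%) with STAC3 RNAi. The median log2 fold change of all genes was 0.01. Most changes were small: 1218 of the 1488 were under 1.5-fold, and 38 genes passed with at least a 2-fold difference (0.375% of all), 17 of them higher and 21 lower. The groups did not overlap for 29.4% of all genes and for 1448 of the genes that passed (14.3% of all). Without control replicate 4 the count was 959 genes. Over all 18408 probes, 2298 passed (12.5%).

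**Figure D1:**
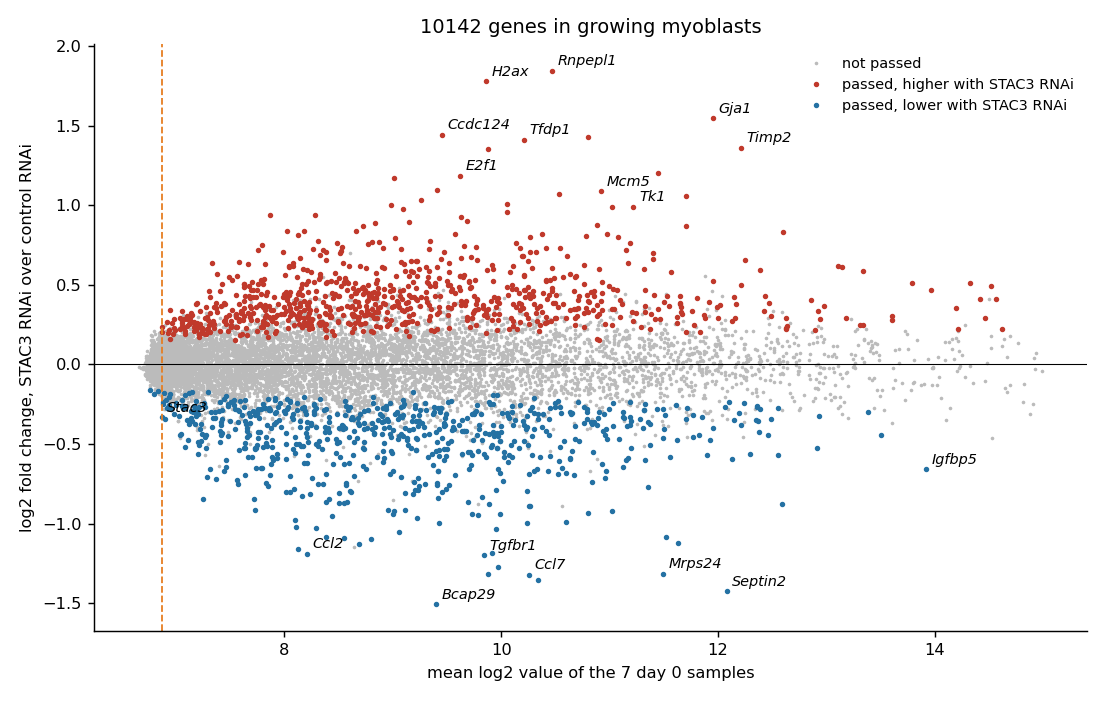
Mean log2 value of the 7 day 0 samples (x axis) against log2 fold change of STAC3 RNAi over control RNAi (y axis) for 10142 genes, with 815 higher and 673 lower genes coloured and the detection level dashed. Rnpepl1 and H2ax lie highest, Bcap29 lies lowest, and Stac3 sits at the detection level with a small negative value.

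The replication machinery moved one way. Of 21 tested genes that license and fire replication origins, 14 rose with STAC3 RNAi and none fell, with a list median of 0.43, where 8.04% of all genes rose and the median of all genes was 0.01. Every MCM subunit of the helicase that unwinds DNA at the fork, Mcm2 to Mcm7, was among the 14. Mcm5 was at 11.33, 11.33, 11.47 and 11.40 with STAC3 RNAi, against 10.27, 10.47 and 10.14 with control RNAi. All RNAi samples stood well above all controls, by 1.09 (SE 0.11, limma adjusted p = 1.36e-05). Mcm6 was at 11.38, 11.31, 11.07 and 11.26, against 10.36, 10.53 and 10.24, higher by 0.88 (SE 0.11, limma adjusted p = 9.28e-05). The other 4 MCM subunits rose by 0.61 (Mcm2), 0.58 (Mcm3), 0.52 (Mcm4) and 0.61 (Mcm7). All passed, Mcm4 with the highest adjusted p (0.0248 by limma). Mcm10, which helps to start the helicase, rose by 0.72 (SE 0.14), Orc5, a subunit of the origin recognition complex, by 0.72 (SE 0.08) and Cdc6, which loads the helicase, by 0.52 (SE 0.11). The other tested members of that complex, Orc1, Orc3, Orc4 and Orc6, did not pass, with differences of 0.19, 0.18, 0.05 and 0.36.

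Promoters of Mcm3, Mcm5 and Mcm6, and of Tfdp1, which is described below, are shown because E2F factors are known to act through short GC-rich letters near the start of such genes. The 4 windows were picked because they hold such letters. Each runs 5′ to 3′ on the gene's own strand, from 250 bases before to 50 after the start in RefSeq on GRCm38.p6, and capitals mark TTTCGCGC, TTTGGCGC, TTTCCCGC or TTTGCCGC, or the reverse complement of any of these, merged where matches overlap. Mcm3 (chr1:20820263-20820562, minus strand) has 2 matches, Mcm5 (chr8:75109259-75109558, plus strand) 2 that overlap, Mcm6 (chr1:128359656-128359955, minus strand) 3, of which 2 overlap, and Tfdp1 (chr8:13338501-13338800, plus strand) 1.
Mcm3: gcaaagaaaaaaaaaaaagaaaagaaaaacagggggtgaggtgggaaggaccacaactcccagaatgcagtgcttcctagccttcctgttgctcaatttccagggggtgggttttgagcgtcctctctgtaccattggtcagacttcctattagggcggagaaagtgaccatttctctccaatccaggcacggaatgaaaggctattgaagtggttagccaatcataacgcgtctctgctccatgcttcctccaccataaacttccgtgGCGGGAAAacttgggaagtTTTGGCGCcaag
Mcm5: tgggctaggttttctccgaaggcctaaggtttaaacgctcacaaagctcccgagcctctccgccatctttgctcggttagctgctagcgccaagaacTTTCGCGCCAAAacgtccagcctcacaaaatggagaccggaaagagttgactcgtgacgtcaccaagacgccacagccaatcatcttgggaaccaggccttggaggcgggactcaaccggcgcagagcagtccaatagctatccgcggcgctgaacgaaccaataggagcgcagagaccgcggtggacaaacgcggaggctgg
Mcm6: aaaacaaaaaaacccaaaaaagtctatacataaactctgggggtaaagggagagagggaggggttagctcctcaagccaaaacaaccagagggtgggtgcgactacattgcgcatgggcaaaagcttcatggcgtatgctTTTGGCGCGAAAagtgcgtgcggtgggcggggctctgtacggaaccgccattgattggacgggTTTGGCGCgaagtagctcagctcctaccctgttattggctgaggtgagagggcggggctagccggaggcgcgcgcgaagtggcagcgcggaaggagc
Tfdp1: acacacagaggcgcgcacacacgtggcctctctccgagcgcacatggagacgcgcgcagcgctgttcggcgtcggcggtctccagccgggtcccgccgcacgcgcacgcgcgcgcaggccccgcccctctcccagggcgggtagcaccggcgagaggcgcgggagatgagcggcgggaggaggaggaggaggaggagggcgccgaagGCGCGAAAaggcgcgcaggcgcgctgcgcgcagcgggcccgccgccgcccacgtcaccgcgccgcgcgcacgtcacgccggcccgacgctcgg
These letters occur in 744 of all 32851 promoters in the RefSeq table (2.26%). Counting a gene once when any of its promoters holds them, they occur in 378 of 8220 tested genes with a promoter in the table (4.6%), in 74 of 670 such genes that rose at day 0 (11%) and in 12 of 538 that fell (2.23%). Among the licensing genes they occur in 6 of 11 that rose and in 3 of 6 that did not pass. Mcm7 has 1 window with 2 matches and 1 with none. The windows of Mcm2, Mcm10, Orc5 and Tk1, which also rose, hold none. The window of E2f1 holds none, which says only that these letters are absent from it, and none of 25 mitosis genes with a promoter has them. A match is a run of letters and was not tested as a binding site.

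At the fork and in the supply of DNA precursors, 18 of 29 tested genes rose and none fell (median 0.36, against 8.04% of all genes). Tk1, the thymidine kinase of dividing cells, was at 11.67, 11.68, 11.68 and 11.53 with STAC3 RNAi, against 10.82, 10.73 and 10.40 with control RNAi. Its groups were far apart, with a difference of 0.99 (SE 0.11, limma adjusted p = 3.55e-05). Uhrf1, which passes DNA methylation on to new strands, rose by 0.82 (SE 0.17), Pold1, the catalytic subunit of DNA polymerase delta, by 0.74 (SE 0.10), Nasp, a histone chaperone, by 0.71 (SE 0.06) and Chaf1b, a subunit of the assembly factor that lays histones on new DNA, by 0.65 (SE 0.09). Pcna, the sliding clamp, was at 8.30, 8.10, 8.26 and 8.02 with STAC3 RNAi, against 7.95, 8.01 and 7.78 with control RNAi. Its groups did not overlap by a narrow margin, and its difference of 0.26 (SE 0.10) did not pass (limma adjusted p = 0.125). With the array set as a block it passed (0.28, limma adjusted p = 0.00643). Without control replicate 4 the count of the list was 10 in place of 18.

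Of the E2F factors, their DP partners and the pocket proteins, 4 of 12 tested genes rose (8.04% of all genes did) and none fell. The list median was 0.12, with large changes in E2f1 and Tfdp1. E2f1, the founding activator of the family, was at 10.19, 10.11, 10.10 and 10.11 with STAC3 RNAi, against 8.95, 8.96 and 8.92 with control RNAi. Samples of a group lay close together and the means 1.18 apart (SE 0.07, limma adjusted p = 1.04e-07), a 2.27-fold rise. Tfdp1, which encodes the main DP partner, was at 10.68, 10.81, 10.89 and 10.88 with STAC3 RNAi, against 9.61, 9.38 and 9.22 with control RNAi. The lowest RNAi sample was far above the highest control, and the difference was 1.41 (SE 0.09, limma adjusted p = 2.07e-07). The pocket protein gene Rbl1 rose by 0.39 (SE 0.08) and the repressor E2f8 by 0.19 (SE 0.06), a call that was lost with replicate number as a block (limma adjusted p = 0.0683). The other 8 members, E2f2, E2f3, E2f4, E2f5, E2f6, Tfdp2, Rb1 and Rbl2, lay between -0.08 and 0.16 and did not pass.

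Among cyclins and cyclin-dependent kinases 5 of 16 tested genes rose and none fell (median 0.07), where 8.04% of all genes rose. Ccne2, one of the cyclin E genes that drive entry into S phase, was at 9.26, 9.29, 9.29 and 9.01 with STAC3 RNAi, against 8.41, 8.30 and 8.26 with control RNAi. It rose by 0.89 (SE 0.09, limma adjusted p = 1.23e-05), with replicate 4 the lowest of the RNAi samples and still above every control. Ccne1 rose by 0.38 (SE 0.08), Cdk2, the kinase that cyclin E binds, by 0.35 (SE 0.10), Cdk1, the kinase of mitosis, by 0.47 (SE 0.12) and Ccnf by 0.27 (SE 0.05). Another probe of Cdk1 was near 0 (0.04) and did not pass. The D-type cyclin Ccnd1, which responds to growth factors, was at 12.69, 12.60, 12.66 and 12.28 with STAC3 RNAi, against 12.57, 12.73 and 12.14 with control RNAi, and these groups overlap (difference 0.08, SE 0.15). Of 6 tested inhibitors of these kinases only Cdkn1a, the gene for p21, passed, where 14.7% of all genes did. It was at 11.57, 11.74, 11.84 and 11.67 with STAC3 RNAi, against 12.07, 11.92 and 12.11 with control RNAi. Its fall of 0.33 (SE 0.09, limma adjusted p = 0.0194) left no overlap between the groups.

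Genes of mitosis rose in 16 of 30 tested cases and 1 fell, where 8.04% of all genes rose and 6.64% fell. The list median was 0.29 and none of its rises was above 0.58. The largest rises were those of Top2a, the topoisomerase that untangles chromosomes, by 0.58 (SE 0.17), Ndc80, an outer kinetochore protein, by 0.55 (SE 0.07), Foxm1, a transcription factor of G2 genes, by 0.50 (SE 0.10) and Incenp, of the chromosomal passenger complex, by 0.47 (SE 0.09). Kif23, a kinesin of the midbody, went the other way, at 10.67, 11.17, 10.92 and 11.33 with STAC3 RNAi, against 11.72, 11.63 and 12.004 with control RNAi. Its fall of 0.77 (SE 0.14, limma adjusted p = 0.00236) holds for its brightest probe, while another of its 3 probes passed in the opposite direction. The count of mitosis genes that rose depends on single libraries: it was 7 without control replicate 4, 8 without STAC3 RNAi replicate 1 and 10 without control replicate 3 or STAC3 RNAi replicate 2.

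Among genes of the DNA damage response 10 of 19 rose and none fell (median 0.24), where 8.04% of all genes rose and 6.64% fell. H2ax, the histone variant that is phosphorylated around DNA breaks, was at 10.60, 10.69, 10.46 and 10.75 with STAC3 RNAi, against 9.02, 8.89 and 8.64 with control RNAi. No RNAi sample came near a control, and the difference of 1.78 (SE 0.11, limma adjusted p = 1.25e-07) was the second largest rise of all genes. Clspn, which carries the checkpoint signal to its kinase, rose by 0.78 (SE 0.13), the mismatch repair gene Msh6 by 0.55 (SE 0.09), the fork protection gene Timeless by 0.54 (SE 0.11) and the recombination gene Rad51c by 0.52 (SE 0.07). Targets of the tumour suppressor p53 were split, with 3 of 17 higher and 5 lower, read against the same shares of all genes. Ei24, a membrane protein of the endoplasmic reticulum, rose by 0.82 (SE 0.10) and Plk2, a kinase of the polo family, by 0.45 (SE 0.09). Pmaip1, which encodes the death-promoting protein Noxa, fell by 0.44 (SE 0.09), Sesn1, a stress-induced regulator of growth signalling, fell by 0.44 (SE 0.08) and the growth arrest gene Gadd45a fell by 0.42 (SE 0.10). Another probe of Sesn1 had the opposite sign (0.12) and did not pass.

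Replication-dependent histones, whose RNA is made in S phase, divided by type, with 7 of 30 tested genes higher and 5 lower (against 8.04% and 6.64% of all genes). The rises were in H2A and H4 genes and the falls in H2B and H1 genes. H2ac12 was at 13.50, 13.47, 13.43 and 13.20 with STAC3 RNAi, against 12.97, 12.91 and 12.49 with control RNAi, higher by 0.61 (SE 0.15, limma adjusted p = 0.0139). H2bc4 was at 9.83, 9.68, 9.90 and 9.78 with STAC3 RNAi, against 10.41, 10.33 and 10.49 with control RNAi, a fall of 0.61 (SE 0.18, limma adjusted p = 0.0327). Neither pair of groups overlapped. The genes H2ac15, H2ac20 and H2ac10 rose by 0.58, 0.51 and 0.49, while H2bc7, H2bc9, H2bc11 and H1f2 fell by 0.41, 0.39, 0.41 and 0.42. Another probe of H2ac20 was near 0 (-0.04) and did not pass. With each run of 6 columns of the intensity table as a block, none of the histone genes with values above passed (limma adjusted p 0.0569 to 0.228). Histone genes of a type are near-identical in their coding sequence, so a probe may read several of them.

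**Figure D2:**
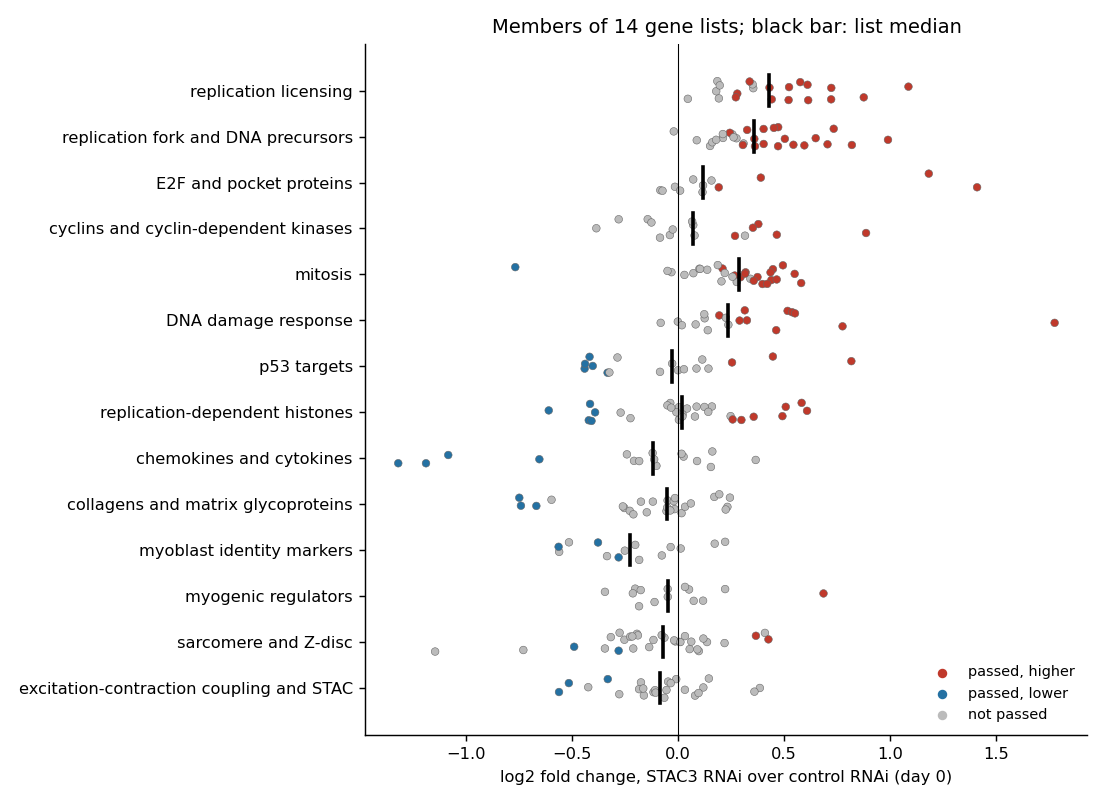
Log2 fold change of STAC3 RNAi over control RNAi (x axis) of each tested member of 14 gene lists (rows), coloured where the adjusted p is below 0.05, with the list median as a black bar. Medians of 0.43, 0.36 and 0.29 set replication licensing, the fork list and mitosis to the right of 0, while the sarcomere list lies around its median of -0.07.

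Outside the cell cycle the largest rises belong to genes of unrelated functions. Rnpepl1, a peptidase of the aminopeptidase family and the largest rise of all, was at 11.33, 11.23, 11.35 and 11.15 with STAC3 RNAi, against 9.56, 9.41 and 9.30 with control RNAi. The difference was 1.84 (SE 0.09, limma adjusted p = 1.35e-08), against an SD of 0.09 with STAC3 RNAi and 0.13 with control RNAi. Gja1, the gap junction protein connexin 43, was at 12.70, 12.64, 12.69 and 12.41, against 11.15, 11.41 and 10.64, higher by 1.54 (SE 0.20). Timp2, an inhibitor of matrix metalloproteinases, was at 12.70, 12.97, 12.68 and 12.81, against 11.44, 11.40 and 11.45, higher by 1.36 (SE 0.10). For these 3 genes no RNAi sample came near a control. Ccdc124, a ribosome-associated protein, rose by 1.44 (SE 0.13), the depalmitoylating enzyme Abhd17a by 1.43 (SE 0.17), the transcription factor Nfic by 1.36 (SE 0.12) and Iscu, the scaffold on which iron-sulphur clusters are built, by 1.20 (SE 0.09).

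Below these, further genes rose by 0.93 to 1.17 and had separate groups. Eif4ebp2, which binds the cap-binding protein and holds back translation, was at 9.74, 9.60, 9.0008 and 9.69 with STAC3 RNAi, against 8.42, 8.39 and 8.21 with control RNAi, higher by 1.17 (SE 0.24). Replicate 3 was the low sample in the RNAi group. Poglut1, a glucosyltransferase that modifies Notch, rose by 1.09 (SE 0.10), the secreted glycoprotein Fstl1 by 1.07 (SE 0.17), the nucleosome-binding protein Hmgn3 by 1.06 (SE 0.13) and Ythdf1, a reader of methylated adenosine in RNA, by 1.03 (SE 0.09). The microtubule regulator Stmn2 rose by 1.01 (SE 0.18), the zinc finger gene Zfp362 by 1.00 (SE 0.09), the Golgi-associated Glipr2 by 0.99 (SE 0.11), the corepressor Hr by 0.98 (SE 0.12) and Camk2n2, an inhibitor of a calcium-dependent kinase, by 0.93 (SE 0.14). Cdca7, a chromatin-bound protein of dividing cells, rose by 0.96 (SE 0.11), and Abhd8 and Ccdc92 both by 0.94 (SE 0.14 and 0.12).

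The largest fall was that of Bcap29, a membrane protein of the endoplasmic reticulum, which was at 8.86, 8.86, 8.78 and 8.53 with STAC3 RNAi, against 10.34, 10.20 and 10.24 with control RNAi. It fell by 1.505 (SE 0.08, limma adjusted p = 3.41e-08), and replicate 4 was the lowest RNAi sample. Septin2, which forms cytoskeletal filaments with other septins, was at 11.49, 11.37, 11.55 and 11.46, against 12.83, 12.86 and 12.99, a fall of 1.42 (SE 0.09). The small GTPase Rhoc fell by 1.32 (SE 0.14), Rap1b, a GTPase of cell adhesion, by 1.12 (SE 0.09), Rab1a, of transport from the endoplasmic reticulum to the Golgi, by 1.13 (SE 0.10) and Rabl2, of the same superfamily, by 1.10 (SE 0.08). Prmt3, an arginine methyltransferase of a ribosomal protein, fell by 1.27 (SE 0.10), Elovl1, which lengthens very long fatty acids, by 1.18 (SE 0.08) and the transcriptional repressor Zbtb18 by 1.16 (SE 0.22). Rsl24d1, a factor in making the large ribosomal subunit, fell by 1.05 (SE 0.12), Nme7 by 1.03 (SE 0.16), Enc1 by 1.00 (SE 0.12) and Extl3, an enzyme of heparan sulphate synthesis, by 0.99 (SE 0.09). The tight junction gene Cldn15 fell by 0.98 (SE 0.17), Ilvbl by 0.96 (SE 0.08) and Rgcc by 0.95 (SE 0.25). Slco4a1, a transporter, was at 8.42, 8.13, 8.29 and 7.502 with STAC3 RNAi, against 9.03, 9.45 and 9.04 with control RNAi, and its fall of 1.09 (SE 0.32, limma adjusted p = 0.0383) rests in part on replicate 4, the lowest sample. Ogn, a matrix proteoglycan, and the neurofilament gene Nefm also fell by more than 2-fold (1.08 and 1.03, SE 0.34 and 0.29), with groups that overlap. Prmt3, Rab1a and the receptor gene Chrng each have a second probe that did not pass (-0.06, -0.0012 and -0.0046). Another probe of Extl3 was near 0 (-0.04).

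Several falls were in signals and enzymes outside the cell. The chemokines and cytokines had 4 of 16 tested members lower and none higher (median -0.12, where 6.64% of all genes fell). Ccl2, which attracts monocytes, was at 7.69, 7.64, 7.72 and 7.76 with STAC3 RNAi, against 8.72, 9.03 and 8.92 with control RNAi, a fall of 1.19 (SE 0.18, limma adjusted p = 0.000479). Ccl7, a related chemokine, was at 9.64, 9.61, 9.80 and 9.73, against 10.81, 11.002 and 11.23, a fall of 1.32 (SE 0.17). Both chemokines were tight and low in the 4 RNAi samples. Csf1, a growth factor of macrophages, fell by 1.08 (SE 0.10) and the cytokine Il11 by 0.65 (SE 0.09). Plau, the urokinase that activates plasminogen, was at 9.76, 9.94, 9.93 and 9.43 with STAC3 RNAi, against 10.97, 11.41 and 10.98 with control RNAi, a fall of 1.35 (SE 0.16, limma adjusted p = 6.65e-05). Plau and Timp2 were the only 2 of 19 tested genes of proteases and their inhibitors that passed, where 14.7% of all genes did. Srpx2, a ligand of the urokinase receptor, fell by 0.99 (SE 0.18). Tgfbr1, the type I receptor for TGF-beta, was at 9.30, 9.36, 9.34 and 9.33 with STAC3 RNAi, against 10.43, 10.53 and 10.62 with control RNAi. It fell by 1.20 (SE 0.07, limma adjusted p = 1.72e-07) with almost no spread in the RNAi group, and its second probe fell by 0.33. Of the other 30 tested genes of the pathway Skil, an inhibitor of its signalling, fell by 0.34 (SE 0.10) and Fstl1 rose. In the matrix 3 of 26 genes fell, Col3a1 by 0.75 (SE 0.11), Tnc by 0.74 (SE 0.16) and Fn1 by 0.67 (SE 0.14), and none rose. Another probe of Tnc was near 0 (-0.04). Of 20 tested genes of the IGF axis 1 rose and 2 fell. Igfbp5 fell by 0.66 (SE 0.08) and Igfbp2 by 0.57 (SE 0.11), both binding proteins, and the receptor Igf1r rose by 0.63 (SE 0.08). These counts, like those of the matrix and the TGF-beta pathway, are read against 8.04% of all genes that rose and 6.64% that fell. Another probe of Igf1r was near 0 (0.05) and did not pass.

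**Figure D3:**
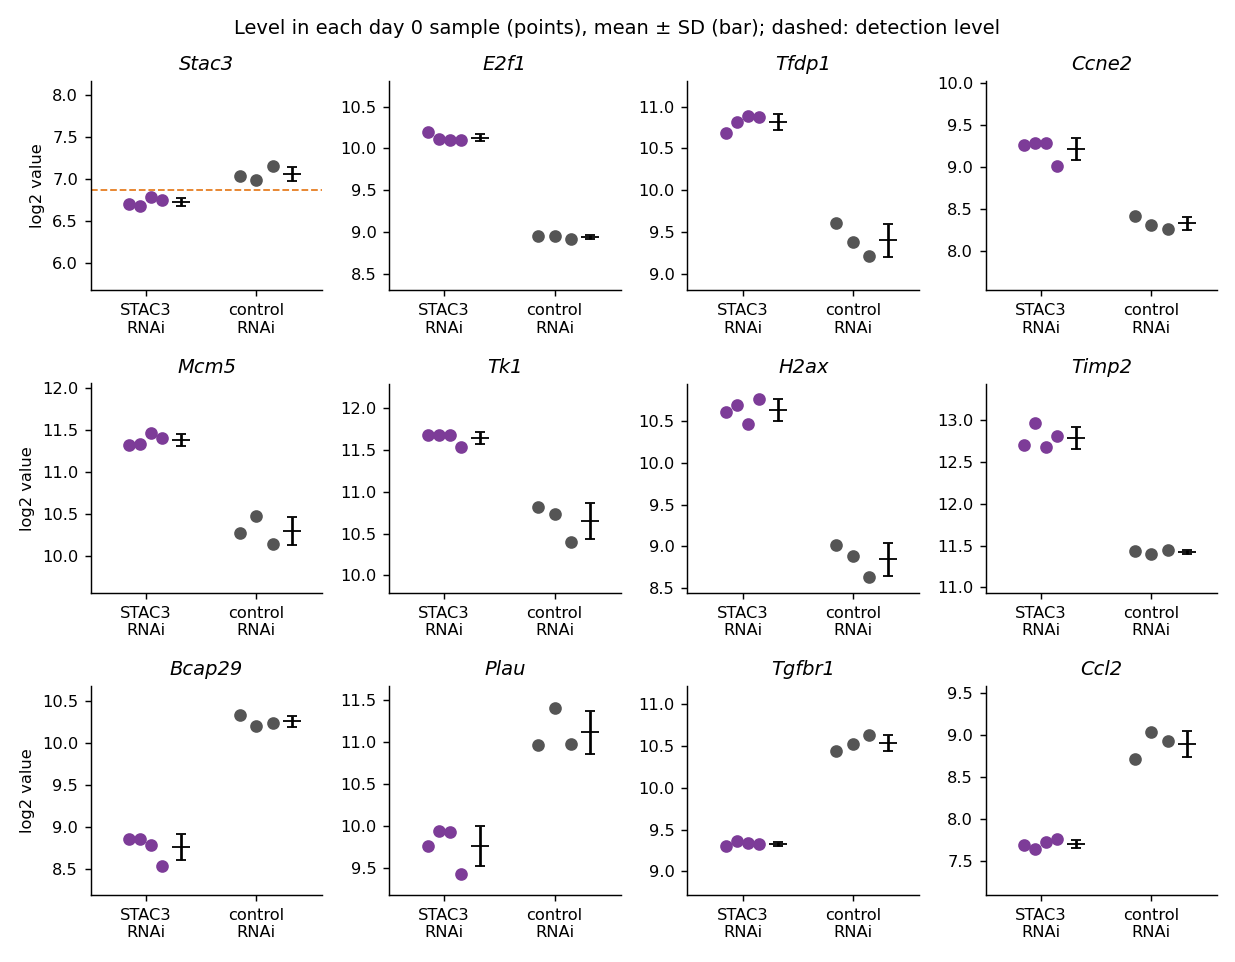
Log2 value in each day 0 sample for 12 genes, with 4 STAC3 RNAi samples on the left and 3 control RNAi samples on the right of every panel, mean ± SD as a bar and the detection level dashed where it falls in range. All panels span the same range of log2 units. No panel has overlapping groups, and Stac3 shows the smallest gap, with its RNAi samples below the detection level.

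Counts in the muscle lists are read against 8.04% of all genes that rose and 6.64% that fell. Of 14 tested myogenic regulators only Sim2 passed, a transcription factor that was at 8.62, 8.81, 8.60 and 8.47 with STAC3 RNAi, against 8.04, 8.03 and 7.75 with control RNAi (0.69, SE 0.09, limma adjusted p = 0.000105). Myod1 differed by 0.22 (SE 0.13, limma adjusted p = 0.327). Myog, which starts terminal differentiation, was at 6.77, 6.76, 6.79 and 7.14 with STAC3 RNAi, against 6.92, 6.82 and 7.46 with control RNAi. Replicate 4 was the highest sample of both treatments, the groups overlap and the difference was -0.20 (SE 0.26). For Myog 3 samples with STAC3 RNAi and 1 with control RNAi lay below the detection level, so the size of its difference is not measured. Mef2c lay near the detection level in both groups (difference -0.05, SE 0.07), and Ckm, the creatine kinase of muscle, was below it in all 7 samples. Of the surface and filament genes that mark myoblasts 3 of 14 fell and none rose (median -0.23): Chrna1, the alpha subunit of the acetylcholine receptor, by 0.56 (SE 0.10), Sdc4, a heparan sulphate proteoglycan, by 0.38 (SE 0.12) and Des by 0.28 (SE 0.08). With replicate number as a block Sdc4 did not pass (limma adjusted p = 0.0546).

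Among 32 tested genes of the sarcomere and Z-disc 2 rose and 2 fell (median -0.07), so that 4 of 32 passed, where 14.7% of all genes did. The median was 0.05 without control replicate 4. Tpm3, a tropomyosin that non-muscle cells also make, rose by 0.43 (SE 0.08), Pdlim7, a Z-disc and stress fibre protein, by 0.37 (SE 0.08), Des fell as above and Actn3, the actinin of fast muscle, fell by 0.49 (SE 0.13). In excitation-contraction coupling 3 of 24 genes fell and none rose (median -0.08), again near the 14.7% of all genes that passed in either direction. Besides Stac3 these were Cacng1, the gamma subunit of the muscle calcium channel to which STAC3 binds, and Asph, whose locus encodes junctin. Cacng1 was at 9.19, 9.57, 9.34 and 9.51 with STAC3 RNAi, against 10.02, 9.85 and 10.02 with control RNAi, a fall of 0.56 (SE 0.11, limma adjusted p = 0.00344) with separate groups. Asph fell by 0.51 (SE 0.07) on its brightest probe, and 1 of its other 11 probes passed in the opposite direction. At the neuromuscular junction 2 of 10 genes fell, Chrna1 and Chrng, the subunit of the fetal acetylcholine receptor. Chrng was at 7.27, 7.53, 7.56 and 8.32 with STAC3 RNAi, against 8.37, 8.40 and 9.30 with control RNAi, a fall of 1.02 (SE 0.29, limma adjusted p = 0.0282). Replicate 4 was again the highest of both treatments, and its RNAi sample lay just below the lowest control. In the list of fusion, adhesion and gap junction genes 3 of 21 rose and none fell: Gja1, the connexin gene Gjc1 by 0.42 (SE 0.10) and the GTPase gene Rac1 by 0.35 (SE 0.09).

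Markers of other cell types were examined beside these, with counts read against the same shares of all genes (8.04% higher and 6.64% lower). In the smooth muscle list 2 of 7 tested genes fell, Mylk by 0.37 (SE 0.10) and Des, and the mean level of the list was 9.72 to 10.21 with STAC3 RNAi and 9.83 to 10.04 with control RNAi. Acta2 was at 14.47, 14.74, 14.78 and 14.71 with STAC3 RNAi, against 14.34, 14.09 and 14.34 with control RNAi, and did not pass (0.41, SE 0.18, limma adjusted p = 0.146). With replicate number as a block it passed, at a limma adjusted p = 0.0262. Actg2, Tagln and Smtn, at 0.16, 0.20 and 0.23, did not pass. In the fibroblast list Pdgfra rose by 0.50 (SE 0.08) and Pdgfrb, Col3a1 and S100a4 fell by 0.58, 0.75 and 0.55, with list means of 7.90 to 8.15 with STAC3 RNAi and 8.07 to 8.19 with control RNAi. No tested marker of adipocytes, bone cells, endothelium or macrophages passed (4, 2, 3 and 2 tested). Their part in the results was not tested. Fewer cells of a kind and less RNA per cell cannot be told apart in these bulk samples.

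At day 1 the RNAi effect was measured against separate control samples, but not on separate runs of arrays. In the larger array set, the run of control arrays and the run of RNAi arrays each hold samples of both days. Any difference between those runs would enter the RNAi effect with the same sign at day 0 and day 1. Its part in the calls that the days share was not tested. Of the 815 genes higher at day 0, 585 were also higher at day 1, 10 were lower and 220 did not pass. Of the 673 lower at day 0, 510 were also lower at day 1, 10 were higher and 153 did not pass. Over all genes, 37.8% passed at day 1, 19.9% higher and 17.8% lower. The size of the effect differed between the days for 555 genes (5.47%), or 865 probes (4.7%), by a test of the difference itself (453 probes without control replicate 3 and 470 without control replicate 2), among them 88 of those higher and 78 of those lower at day 0. E2f1 was 1.18 higher at day 0 and differed by -0.14 (SE 0.06) at day 1, a change of -1.33 in the effect (SE 0.09, limma adjusted p = 5.01e-06). Fgf21, a metabolic hormone, fell by 0.71 at day 0 and by 2.69 at day 1 (change -1.98, SE 0.15). Serping1, an inhibitor of complement, fell by 0.44 at day 0 and by 1.94 at day 1 (change -1.503, SE 0.14), and Tspan32, a tetraspanin, fell by 0.52 and by 1.71 (change -1.19, SE 0.09). The muscle genes Actn3 and Chrng fell by 0.49 and 1.02 at day 0 and by 2.03 and 2.66 at day 1. The effect moved up for the protease Htra3 (-0.78 at day 0, 0.38 at day 1), the iron exporter Slc40a1 (-0.79 and 0.35), the pyrophosphate transporter Ank (-0.46 and 0.52), the thioesterase Acot1 (0.51 and 1.57), the immediate early gene Egr2 (0.47 and 1.496) and the histone gene H2ac7 (0.36 and 1.35). The later samples were also in another medium, and the parts of medium and of hours since transfection cannot be told apart.

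**Figure D4:**
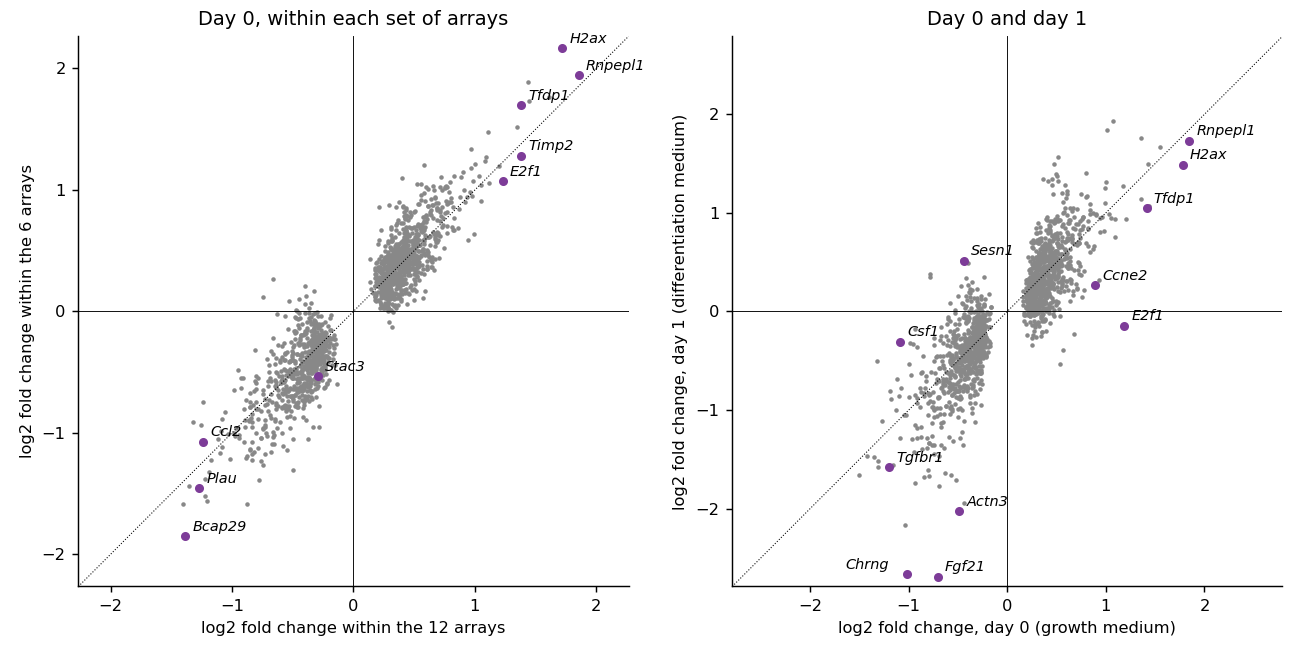
Log2 fold changes of STAC3 RNAi over control RNAi for the 1488 genes that passed at day 0. The left panel sets the 12 arrays (x axis) against the 6 arrays (y axis), both of which hold samples that chose these genes, and the right panel sets day 0 (x axis) against day 1 (y axis), where E2f1 lies near 0 and Fgf21, Chrng and Actn3 lie far below the dotted line of equality.

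The smaller set of arrays allows a view in which RNAi and control arrays are interleaved, although at day 0 it holds only STAC3 RNAi replicate 4 and the repeat of control replicate 4, samples that also enter the comparison above. Since the genes were chosen on these samples, their sign in either set is largely fixed by that choice and is a description only. Within the 6 arrays 1473 of the 1488 genes kept their sign. Of the 38 genes that passed with at least a 2-fold difference, all kept their sign within the 6 arrays and 32 were at least 2-fold there. The differences within the 6 were 1.07 for E2f1, 1.70 for Tfdp1, 1.24 for Mcm5, 2.16 for H2ax and -1.85 for Bcap29. When each run of 6 columns was taken as a block, a setting chosen after seeing the data, 704 of the 1488 genes passed, and 34 of the 38. Stac3 was at -0.44 there (limma adjusted p = 0.0574). The 4 of the 38 that did not pass there were Slco4a1, Chrng, Ogn and Nefm. The runs of the larger set each hold only control or only RNAi arrays. The block setting therefore sets RNAi against control only through the smaller set, whose day 0 samples also chose the genes.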

How the data were processed

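The study has 18 bead arrays of 15 samples. The deposited intensity table has, per the file headers, 1 mean bead intensity and 1 detection p-value for each of 45281 probes and each array. For 24538 of them the authors deposited normalized log2 values. The submitters' processing notes name lumi for this step, with a version and options not given in the sources used here. Between dim probes these values move by 0.545 to 0.793 per log2 unit of intensity and between bright ones by 0.962 to 1.06, so fold changes of dim genes are understated.

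Samples were taken from the column names of the value table. Each column of the intensity table has the probe ranking of exactly 1 value column, but for 12 of 18 columns the names differ. Repeat arrays are most like their named partner in the value table, and its names were used. The 18 columns of bead standard errors were not used.

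Repeat arrays were averaged. The 18408 probes detected (p-value under 0.01) on 3 or more arrays were tested. All 4 groups entered 1 limma model (limma 3.58.1, R 4.3.3), and p-values were adjusted by Benjamini-Hochberg over the tested probes. Gene names come from the platform annotation, updated through RefSeq: 20685 probes have 1 gene name, 8 several and 3845 none. The fit was tested on simulated data. Deviations of same-numbered day 0 samples from their group means correlated at 0.110, 0.289 and 0.453 for replicates 2, 3 and 4, and those of differently numbered samples at -0.385 to 0.169, the highest being RNAi 3 with control 2. Since every same-numbered pair was above 0.1, replicate number as a block was an alternative. That limit does not show pairing, since RNAi 3 with control 2 lay above the pair of replicate 2. Replicate 4 of both treatments also has arrays in the smaller set. Other alternatives were filters, scalings, single libraries and array sets.

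The 41 gene lists and the members were chosen with earlier results of these data known. Named are Stac3 and 13 other fixed genes, the 25 largest rises and falls with separate groups, up to 5 leading members of each list with every passing member against its direction, the genes that differ most between days and detected markers of other cell types. The tested list members of the MCM, ORC and E2F families are all given, and Ogn and Nefm were named after their values were seen. Precision is limited by the number of arrays.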

Additional observations from a re-analysis of the deposited data

Results flagged for a closer look

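In the STAC3 RNAi group 1 sample stood apart from the other 3 for 9 genes and 1 gene list. Chance alone marks about 1 group in 20, and 222 groups of 4 samples were examined, so that 10 cases are near that rate. Replicate 4, which lies alone in the smaller array set among these 4, was the sample in 8 of the 10 cases. It was low for Tk1 (11.53), Ccne2 (9.01), Prdx3 (8.84) and Hspb8 (10.68), and high for Myog (7.14), Fstl1 (11.42), Rac1 (9.14) and the mean of the fusion, adhesion and gap junction list (9.39). Replicate 1 was high for Pfkm (10.13) and replicate 3 for Pdlim7 (11.62).

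The RNAi effect differed between the days by the test of the difference (limma adjusted p below 0.05, effect at day 1 minus effect at day 0) for 38 of the genes named here. In the cell cycle and DNA repair genes among these 38 it was lower at day 1, by -1.33 for E2f1, -0.62 for Ccne2, -0.58 for Timeless, -0.56 for Cdk2, -0.48 for Nasp, -0.46 for Ccne1, -0.42 for Rad51c, -0.32 for E2f8 and -0.25 for Ccnf. Whole lists were divided. The median for mitosis was 0.47 at day 1 and 0.29 at day 0, with 24 of 30 genes higher at day 1 (19.9% of all genes were). It was 0.22 at day 1 and 0.43 at day 0 for licensing, and 0.15 and 0.36 for the fork list. The H2A genes went up, by 0.99 for H2ac7, 0.90 for H2ac10, 0.81 for H2ac20 and 0.70 for H2ac15. Among p53 targets the change was -0.80 for Cdkn1a, -0.67 for Pmaip1 and 0.95 for Sesn1. In muscle genes it was -1.64 for Chrng, -1.54 for Actn3, -1.46 for Ckm, -0.60 for Stac3 and -0.48 for Pfkm. Ckm was below detection in all 7 day 0 samples and Stac3 in all 4 STAC3 RNAi samples at day 0, so neither has a measured size of its effect there. At day 1 Stac3 averaged 6.75 with STAC3 RNAi, again below the detection level of about 6.87, and 7.68 with control RNAi.

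Signals, receptors and other genes divided. The change was -1.98 for Fgf21, -1.5 for Serping1, -1.19 for Tspan32, -1.13 for Nme7, -1.09 for Igfbp2 and -0.38 for Tgfbr1. It was 1.17 for Htra3, 0.86 for Fstl1, 0.77 for Csf1 and 0.43 for Pdgfra. Genes of metabolism, transport and other functions had changes of 1.14 for Slc40a1, 1.06 for Acot1, 0.98 for Ank, 0.57 for Gsto1, 0.37 for Slc2a3, 1.02 for Egr2 and 0.32 for Ifi27.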

How the results depend on the processing

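Of 2298 probes called at day 0, the count stayed between 2156 and 3050 under the filters, scalings, robust fit, replicate block (2387), array set block, first arrays, day 0 samples alone or the 12 arrays alone. Leaving out 1 library gave 1480 to 1942. A limit of at least 1.5-fold left 380 probes and an adjusted p below 0.01 left 1092. Within the 6 arrays, where the lone day 0 samples are assumed to vary like the day 1 groups, 9 passed (2209 at an unadjusted p below 0.05). With each run of 6 columns as a block 1125 passed, and without both day 0 samples numbered 4, which removes 2 libraries, 1176; both settings were chosen after seeing the data. The intensity table matched by column name gave 0 by limma (960 at an unadjusted p below 0.05), with 1213 of the 2298 called probes of opposite sign. Probes whose effect differs between days numbered 865, against 453 to 750 without 1 library (453 without control replicate 3 and 470 without control replicate 2), 559 without both samples numbered 4 and 0 by limma within the 6 arrays (1358 at an unadjusted p below 0.05).

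Stac3 was at -0.28 to -0.37 without 1 library (limma adjusted p 0.0324 to 0.101). It was -0.289 on first arrays, -0.295 within the 12 arrays, -0.54 within the 6, -0.44 with runs of 6 columns as a block and -0.29 without both samples numbered 4, with limma adjusted p of 0.0506, 0.0671, 0.166, 0.0574 and 0.144 in that order.

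The medians of the licensing, fork and mitosis lists kept their sign in these settings. That of the sarcomere list did not (0.0081 within the 6 arrays), nor did several lists with medians near 0. Within the 6 arrays the 3 were 0.54 for licensing, 0.48 for the fork and 0.38 for mitosis, with 0 members of each passing by limma (15, 20 and 13 at an unadjusted p below 0.05), and with all probes of a gene averaged 0.36 for licensing and 0.26 for the fork. Members that rose without 1 library numbered 11 to 14 for licensing, 10 to 16 for the fork and 7 to 11 for mitosis. With runs of 6 columns as a block 6 mitosis genes rose, and without both samples numbered 4 there were 11 fork genes and 6 mitosis genes.

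Single genes turned sign. Without 1 library Mef2c ranged from -0.111 to 0.00036, Ccnd1 from -0.0907 to 0.203 and Actg2 from -0.0575 to 0.389. Ccnd1 was at -0.0036 with probes averaged, Actg2 at -0.10 within the 12 arrays, Ckm at 0.00057, Ddit3 at 0.0069 and S100a4 at 0.12 within the 6 arrays, Ckm at 0.0246 with runs of 6 columns as a block and Kif23 at 0.13 with probes averaged. The causes were not tested. With replicate number as a block 8 of the 180 genes tracked lost their call and 1 gained it. With each run of 6 columns as a block 60 of the 180 lost their call. Without both samples numbered 4 it was 60, and without control replicate 4 it was 50. Cdkn1a, Cdk1, Top2a, H2ac12 and Cebpb were among those lost with runs of 6 columns as a block (limma adjusted p 0.107 to 0.208). Ckm lies below detection in all 7 samples and Stac3 in the 4 STAC3 RNAi samples.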

Other observations

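Beyond the lists described above, stress and metabolic genes moved singly at day 0. The counts are read against 8.04% of all genes that rose and 6.64% that fell. Of 31 tested genes of the integrated stress response and amino acid synthesis 3 rose and 4 fell with STAC3 RNAi. Cebpb, a transcription factor of that response, was at 11.19, 11.21, 10.92 and 11.16 with STAC3 RNAi, against 10.21, 10.45 and 10.28 with control RNAi, higher by 0.81 (SE 0.20, limma adjusted p = 0.0166). Fgf21 fell by 0.71 (SE 0.11) and Ddit4, which restrains growth signalling, by 0.43 (SE 0.12), while Aldh1l2 rose by 0.42 (SE 0.12) and Sesn2 by 0.26 (SE 0.07). Ddit3, the factor CHOP, fell by 0.41 (SE 0.13), but its groups overlap, the call was lost on leaving out 1 library in 5 of 7 cases, and with the array set as a block limma gave an adjusted p = 0.053. In the list for glycolysis and glucose uptake 3 of 21 genes fell. They were Pfkm by 0.26, Slc2a3 by 0.19 and Vegfa, a growth factor that is not itself part of glycolysis, by 0.34. Slc2a3 did not pass with replicate number as a block, nor Pfkm with the array set as a block (limma adjusted p = 0.053 and 0.0506). Hsd17b7 fell by 0.83 (SE 0.19), the only one of 17 genes of cholesterol synthesis that passed. Prdx3, the peroxiredoxin of mitochondria, was at 9.12, 9.17, 9.12 and 8.84 with STAC3 RNAi, against 10.01, 9.99 and 9.70 with control RNAi, a fall of 0.84 (SE 0.09), while Prdx4, of the endoplasmic reticulum, rose by 0.37 (SE 0.09). The glutathione transferases Gstm2 and Gsto1 fell by 0.55 and 0.38, which makes 1 rise and 3 falls among 27 genes of that list. Of 47 genes of oxidative phosphorylation, Atp5g3, Ndufb8 and Uqcrq rose by 0.29, 0.23 and 0.17, and Atp5pb and Ndufb9 fell by 0.33 and 0.32.

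Mrps24 stood alone among mitochondrial ribosomal proteins, at 11.02, 10.94, 11.03 and 10.74 with STAC3 RNAi, against 12.25, 12.30 and 12.18 with control RNAi. It fell by 1.31 (SE 0.09), while the 9 others of 47 that passed changed by 0.48 or less, among them Mrps15 (0.48) and Mrpl16 (0.42) upward and Mrpl27 (-0.40), Mrps23 (-0.38) and Mrps28 (-0.24) downward. Mrps28 did not pass with replicate number as a block (limma adjusted p = 0.0589). Of 30 cytosolic ribosomal proteins Rpl35 rose by 0.41 (SE 0.06) and Rps19 by 0.23 (SE 0.06; limma adjusted p = 0.0618 with the block). The proteasome subunit Psmc5 fell by 0.53 (SE 0.07), while Psmd1 rose by 0.29 and Psma5 by 0.25 (limma adjusted p = 0.0592 with the block), the 3 of 37 tested that passed.

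Of 17 tested genes of the RNA interference machinery 3 rose and 1 fell. Tnrc6a and Tnrc6c, which silence bound RNAs together with Argonaute, rose by 0.50 (SE 0.11) and 0.38 (SE 0.09), Tarbp2, a partner of Dicer, rose by 0.26 (SE 0.08), and Xpo5, the exporter of miRNA precursors, fell by 0.28 (SE 0.09; limma adjusted p = 0.0615 with the block). In the interferon response 2 of 25 genes rose, the share of all genes that did, Irf1 by 0.49 (SE 0.09) and Ifit2 by 0.38 (SE 0.08), and Ifi27 fell by 0.39 (SE 0.06). None of the other 4 probes of Irf1 passed (lowest 0.05). Of 23 immediate early genes 3 rose and 3 fell. Srf rose by 0.64 (SE 0.10), Egr2 by 0.47 (SE 0.11) and Jund by 0.46 (SE 0.13; limma adjusted p = 0.0551 with the block), while Ier3 fell by 0.63 (SE 0.18), Dusp1 by 0.48 (SE 0.12) and Fos by 0.23. Of 18 heat shock genes Hspb8 and Dnajb1 passed, at -0.59 (SE 0.14) and 0.32 (SE 0.08).

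Of 24 genes of RNA methyl transfer and splicing 3 rose and 4 fell. Qk, an RNA-binding protein of splicing, was at 7.31, 7.27, 7.24 and 7.20 with STAC3 RNAi, against 7.92, 7.93 and 8.17 with control RNAi, a fall of 0.75 (SE 0.10, limma adjusted p = 0.000173). Celf2, another splicing regulator, fell by 0.67 (SE 0.15), while Srsf3 and Srsf1 rose by 0.42 and 0.29. Apart from Prmt3, the arginine methyltransferase genes Prmt2 and Prmt6 were at -0.31 (SE 0.08) and 0.22 (SE 0.06). In the cytoskeleton list 6 of 29 genes rose and 2 fell, and besides Septin2, Rhoc and Stmn2 these included Lmnb1, of the nuclear lamina, which rose by 0.63 (SE 0.18), and Septin9, which rose by 0.49 (SE 0.13). None of 14 tested genes of the Notch pathway and Id family passed by limma. Srf, Lmnb1 and Rps19 each have another probe near 0 (0.0022, 0.05 and 0.02), and Psmd1 and Prmt6 have one of opposite sign (-0.23 and -0.21), none of which passed. Zbtb18, Nme7, Fn1 and Nasp also have a probe of opposite sign that did not pass (0.08, 0.10, 0.07 and -0.03).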
